A study of Homo sapiens with 6 samples.

Results

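The human cells of a Drop-seq library and of a 10X Chromium library, both amplified with 30 PCR cycles, were compared gene by gene and isoform by isoform. In each library the cells were the barcodes with the largest count sums, 500 for Drop-seq and 2000 for 10X as the labels give them, and a cell was called human if human transcripts held at least 90% of its counts. This gave 166 human cells of 500 in Drop-seq and 1006 of 2000 in 10X, which is 1172 human cells of the 2500 in both libraries and of 6000 cells in the series. Near the purity limit, 11 Drop-seq and 22 10X human cells lay between 90 and 95%, and 5 cells in each library lay between 85 and 90% and were left out.

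The study mixed human and mouse cells to test how well unique molecular identifiers (UMIs), the random tags that mark each captured RNA molecule, are counted after PCR. Both libraries are labelled as JJN3, a human plasma cell myeloma line, with the mouse myeloma line 5TGM1 (written 5TGMG1 in the labels), mixed at 20:80 human to mouse for Drop-seq on the Nadia system and at 50:50 for 10X. The cDNA was read on nanopore instruments with the LSK-114 kit. The study's single-cell methods name JJN3, while a figure legend and the cell culture section name Jurkat, a human T cell leukaemia line, so marker genes of both cell types were read first. Each side was 1 library, so no difference below has a replicate check or a test, and platform, human line, mixing ratio and sequencing run cannot be told apart. All intervals are 95% and cover counting error only.

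Plasma cells are the antibody-secreting end stage of the B cell lineage. They devote much of their RNA to immunoglobulin chains, and a clone keeps either the kappa or the lambda light chain. T cells and their leukaemias instead carry the T cell receptor with its CD3 signalling chains, and immature T cells also carry CD1 proteins, which present lipids.

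The constant segments of the lambda light chain and of the T cell receptor beta chain decide which cell type a transcript points to, and each exists in close copies that a long read must tell apart. The first 120 bases of these segments are shown 5′ to 3′ from hg38, plus strand, with capitals at the positions that differ within each group. IGLC1 lies at chr22:22895375-22895494, IGLC2 at chr22:22900976-22901095, IGLC3 at chr22:22906342-22906461, TRBC1 at chr7:142791694-142791813 and TRBC2 at chr7:142801041-142801160.
IGLC1: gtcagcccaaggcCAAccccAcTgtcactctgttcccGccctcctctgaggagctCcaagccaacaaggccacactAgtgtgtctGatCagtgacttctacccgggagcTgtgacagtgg
IGLC2: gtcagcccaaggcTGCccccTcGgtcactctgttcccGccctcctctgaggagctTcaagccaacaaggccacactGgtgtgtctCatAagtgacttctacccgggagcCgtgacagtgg
IGLC3: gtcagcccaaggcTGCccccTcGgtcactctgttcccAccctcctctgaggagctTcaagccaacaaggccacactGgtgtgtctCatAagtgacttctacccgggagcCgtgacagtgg
TRBC1: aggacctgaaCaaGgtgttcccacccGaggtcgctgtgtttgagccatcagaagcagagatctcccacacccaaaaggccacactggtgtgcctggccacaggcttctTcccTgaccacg
TRBC2: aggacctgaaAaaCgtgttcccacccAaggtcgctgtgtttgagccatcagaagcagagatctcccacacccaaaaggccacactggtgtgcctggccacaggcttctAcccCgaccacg
Over these stretches the lambda segments differ at 11 positions and the beta segments at 5. In the human cells the counts fell on 1 copy of each group. IGLC1 had 1728 counts in 10X while IGLC2 and IGLC3 were listed at 0, and TRBC1 had 50 counts in Drop-seq while TRBC2 was listed at 0. Over all barcodes of the same libraries, IGLC2 had 20, IGLC3 16 and TRBC2 9 counts.

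The libraries differed in depth and in the values they store. The smallest stored value was 3 in Drop-seq and 2 in 10X, so values below 3 were set to missing in both. This kept all 67144 human counts of Drop-seq and 48043 of 161961 in 10X, or 29.7%. The median human cell then held 243 counts in Drop-seq (range 114 to 3314) and 33.5 in 10X (range 0 to 488), with 10 10X cells at 0. Levels are given as CPM, the counts scaled to a total of 1e6 human counts kept, on which 3 counts are worth 44.7 CPM in Drop-seq and 62.4 CPM in 10X. A gene listed at 0 may therefore have had lower values that were not kept. Against a library at 0, a fold is given as at least the value with 3 kept counts there. Such folds hold for kept counts only, since the cut acts on each cell and transcript and the values left out could lower them. RPS19, for example, was at least 166-fold higher in Drop-seq, but 33.7-fold with values of 2 kept. No human cell barcode was shared between the libraries, while 145 were shared with Drop-seq at 35 cycles, 135 with Drop-seq at 25 cycles and 722 between the 10X libraries, so the other cycle numbers hold many of the same barcodes and are no replicates.

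The 10X human cells carried lambda immunoglobulin, and the Drop-seq human cells carried none. IGLL5, a gene of the lambda locus (chr22:22887780-22896111), had 0 counts in Drop-seq and 5823 in 10X, or 121204 CPM. In kept counts it was at least 2713-fold higher in 10X with values below 3 missing, and at least 1032-fold with values of 2 kept. IGLV2-14, a lambda variable segment (chr22:22758700-22759218), had 0 and 1983 counts, at least 924-fold higher in 10X, or 350-fold with values of 2 kept. IGLC1, the lambda constant segment, had 0 and 1728 counts, at least 805-fold higher in 10X, or 317-fold with values of 2 kept. IGLL5 and IGLC1 can share reads, because IGLC1 lies wholly inside IGLL5 and its 460 bases are found unbroken in the leading IGLL5 transcript. Their counts are therefore not separate evidence. Whether IGLV2-14 also shares reads with them was not tested. JCHAIN, which joins immunoglobulin chains into polymers, lies on chromosome 4 and had 0 counts in Drop-seq and 166 in 10X, or 3455 CPM, at least 77.3-fold higher, or 54.2-fold with values of 2 kept.

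Of the 17 genes of the immunoglobulin list, IGLL5, IGLC1 and JCHAIN had counts, all in 10X and in that library alone, and the other 14 were at 0 in both, the heavy chain and kappa constant genes among them. The list summed to 0 of 67144 human counts in Drop-seq, for which 3 counts would be 0.00447%, and to 7717 counts or 16.1% in 10X (exact Clopper-Pearson 15.7 to 16.4%). This sum adds IGLC1 to IGLL5 transcripts of 2173, 2169 and 1481 counts. These can hold the same reads, so 1 molecule may be counted more than once and the share is not one of molecules. With values of 2 kept, the list had 10157 counts in 10X and a share of 6.27%, since the kept total rose more than the list. With values below 3 missing, its share was 23.1% in 10X at 35 cycles, and the other Drop-seq libraries had none. The smallest value Drop-seq stores is 3, so a level of 1 or 2 molecules per cell and transcript would not be seen there.

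Other plasma cell genes had low counts, with most of them in 10X. PRDM1, which encodes the transcription factor Blimp-1 that drives plasma cell identity, had 0 and 72 counts. TXNDC5, an endoplasmic reticulum disulfide isomerase, had 0 and 64 counts, and MZB1, a chaperone of antibody assembly, had 5 and 39. SDC1, the surface proteoglycan CD138 that defines plasma cells, had 0 and 9 counts, and POU2AF1, a B lineage coactivator, had the same 0 and 9. TENT5C had 5 and 6 counts, FCRL5 had 0 and 3, and CD79A, a chain of the B cell receptor, had 5 and 0. The whole list of 21 genes had 8 with counts, none of which reached the 100 counts over both libraries needed for a call, and it summed to 15 counts in Drop-seq and 202 in 10X, or -4.23 as a log2 ratio with an exact conditional interval of -5.10 to -3.48. When values of 2 were kept, 19 of the 21 had counts in 10X, which summed to 1110, against 3 genes and 15 counts in Drop-seq.

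Of 11 genes that myeloma translocations switch on, or that act beside them, 3 had the 100 counts needed to be compared, and all 3 were called at least 4-fold higher in 10X, beside 27.6% of all genes compared. All 3 were at 0 in Drop-seq and so could reach the minimum only by being high in 10X. ITGB7, an integrin chain and known target of MAF, had 0 counts in Drop-seq and 597 in 10X, at least 278-fold higher. CCND2, a D-type cyclin, had 0 and 143 counts, at least 66.6-fold higher in 10X, and MAF, a leucine zipper transcription factor, had 0 and 108, at least 50.3-fold higher. With values of 2 kept these bounds were 186, 47.7 and 28.2-fold. NSD2, a histone methyltransferase, had 26 and 3 counts and CCND3 had 4 and 0. The list had 5 genes with counts, summing to 30 and 851. ITGB7, CCND2 and MAF had 1867, 105 and 29 counts in 10X at 35 cycles and were at 0 in all 3 Drop-seq libraries. ZNF740, at 0 and 244 counts, lies on the opposite strand and overlaps ITGB7 by 3820 bases, so reads of the pair may not be separated.

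Some of the Drop-seq human cells carried T cell genes that were listed at 0 in 10X. CD3G, the gamma chain of CD3, had 73 counts in Drop-seq and 0 in 10X, at least 17.4-fold higher. TRBC1, the T cell receptor beta constant segment, had 50 and 0 counts, at least 11.9-fold higher in Drop-seq. CD1E, a lipid antigen protein of immature T cells and dendritic cells, had 82 and 0 counts, at least 19.6-fold higher. CD3D, the delta chain of CD3, had 9 and 0 counts. Among genes of T cell signalling, FYB1, an adaptor downstream of the receptor, had 45 and 0 counts, and LCP2, the adaptor SLP-76, had 20 and 0. The surface proteins CD99, CD2, CD1A and CD7 had 36, 16, 11 and 9 counts in Drop-seq and 0 in 10X. Each gene was counted in few of the 166 Drop-seq human cells. TRBC1 had a value in 7, CD3G and CD1E in 6 each, FYB1 in 2 and LCP2 in 1. CD99, CD2, CD1A and CD7 had one in 2, 3, 1 and 1.

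Of the 10 genes of the T cell receptor and CD3 list, CD3D, CD3G and TRBC1 had counts, and CD3E, TRAC and TRBC2 were among those at 0 in both libraries. The list summed to 132 counts in Drop-seq, 0.197% of human counts, and to 0 in 10X, at least 31.5-fold higher (log2 4.98). This log2 bound was 3.14 with values below 5 missing, 3.80 with equal numbers of human cells and 6.73 with values of 2 kept. The 25-cycle Drop-seq library gave 0.220% and the 35-cycle one 0.170%, and 10X stayed at 0 at 35 cycles. The T cell and thymocyte list of 34 genes had 10 with counts in Drop-seq, summing to 252, and none in 10X. None of its members reached the 100 counts needed for a call. In 10X with values of 2 kept, there were still 0 counts on the receptor and CD3 list, while 5 members of the thymocyte list had 18 counts in all, 8 of them on LCP2. Variable and joining segments of the receptor, which are on neither list and were named after their values were seen, also had small counts in Drop-seq. TRBV12-3 had 7, TRBV12-4 had 4, TRBJ1-3 had 4, TRAV8-4 had 3 and TRBJ2-3 had 3.

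**Figure D1:**
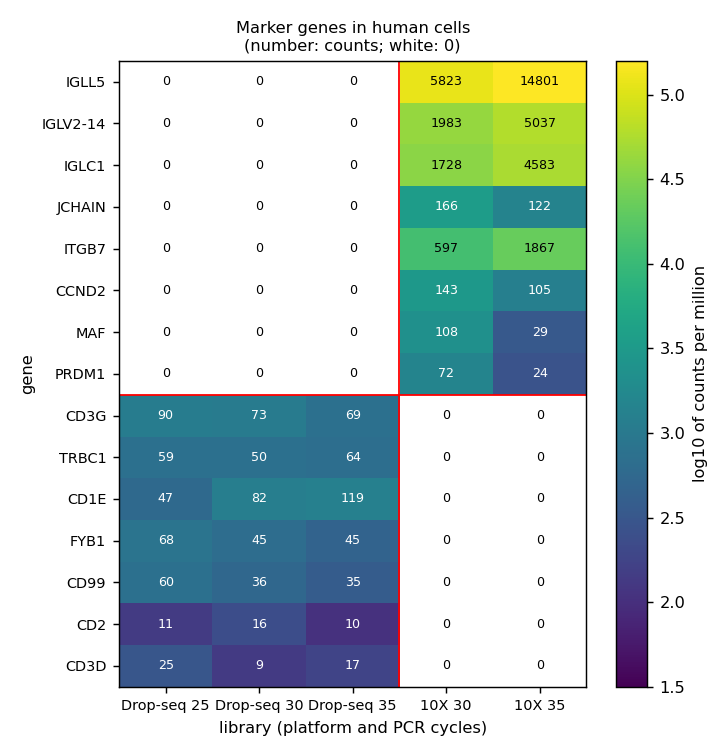
Counts of 15 marker genes (rows) in the human cells of 5 libraries (columns), with colour for the log10 of CPM and white for 0. The genes above the line have counts in the 10X libraries and 0 in all Drop-seq libraries, as IGLL5 with 5823 counts in 10X at 30 cycles, and those below have counts in Drop-seq and 0 in 10X, as CD3G with 73. The genes were picked with earlier results known, so the clean split is no result. List members not drawn include MZB1 (5 counts in Drop-seq and 39 in 10X at 30 cycles), TENT5C (5 and 6), CD79A (5 and 0) and NSD2 (26 and 3).

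The same markers were then read per cell. An immunoglobulin value was found in 522 of 1006 10X human cells, 51.9% (exact 48.7 to 55.0%), against 2 of 806 mouse cells of that library, 0.248% (0.0301 to 0.893%). The median depths of these cells were 33.5 and 26 counts. Mouse cells were called by a low share of human counts, so values on any human gene are rare there by selection. Human ribosomal protein values were found in 0 of the 806 mouse cells and human mitochondrial values in 3. The mouse cells are therefore no test of the marker. In Drop-seq an immunoglobulin value was found in 0 of 166 human cells, where 3 cells would be 1.81%. The 10X cells with a value had a median of 47.5 counts in all and those without had 21. Among the 97 10X human cells with at least 100 counts, 88 had an immunoglobulin value, 90.7% (83.1 to 95.7%), and at 35 cycles 91.1% of 911 human cells had one.

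A T cell receptor or CD3 value was found in 15 of 166 Drop-seq human cells, 9.04% (5.15 to 14.5%), against 1 of 291 mouse cells of that library, 0.344%, which is a barcode of 15086 counts. The median depths of the human and mouse cells were 243 and 278 counts. Here too the species call keeps human values out of mouse cells. Human ribosomal protein values were found in 13 of the 291 and human mitochondrial values in 19, so the mouse cells do not test these markers. With both T cell lists joined, 32 of 166 human cells had a value, 19.3% (13.6 to 26.1%), and 3 of 291 mouse cells, 1.03% (0.213 to 2.98%). The cells with a value had a median of 357.5 counts in all and those without had 231.5. In 10X, 0 of 1006 human cells had one, where 3 cells would be 0.298%. So 134 of 166 Drop-seq human cells had no kept T cell value, and their type was not read from these lists.

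No human cell of either library had a value on both kinds of list, which is no result. No 10X cell had a T cell value and only 3 Drop-seq cells a plasma cell value, so an overlap had little room. In Drop-seq 32 cells had only T cell values, 3 had only values of the plasma cell list and 131 had neither. In 10X 528 cells had only plasma cell or immunoglobulin values and 478 had neither. Markers of further cell types were few. The B cell, myeloid and erythroid lists of 12, 12 and 9 genes had no count in either library, nor did 13 transcription factors of T cell leukaemia or 10 nuclear RNAs. The natural killer list of 10 genes had 2 with counts, both in 10X, with 92 on KLRD1 and 3 on KLRC1. KLRD1 also had counts in further libraries, 24 in 10X at 35 cycles and 18 and 14 in the other Drop-seq libraries, so it did not part the platforms. MHC class II genes, which B cells carry, had 0 and 29 counts, 26 of them on the invariant chain CD74.

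**Figure D2:**
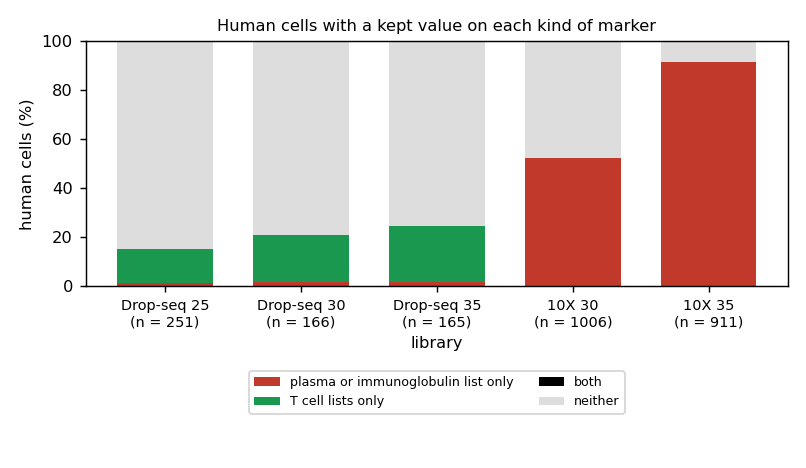
Share of human cells (%) in each of 5 libraries with a kept value on the plasma cell or immunoglobulin lists only, on the T cell lists only, on both or on neither. Plasma cell or immunoglobulin values were in 528 of 1006 cells of 10X at 30 cycles and 3 of 166 of Drop-seq at 30 cycles. No cell had both, which is no result, since no 10X cell had a T cell value and few Drop-seq cells a plasma cell value.

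The 10X human cells thus carried markers of the plasma cell type that the label JJN3 names. The Drop-seq human cells, also labelled JJN3, had 0 immunoglobulin counts and 384 counts on the T cell lists, in 32 of 166 cells. These lists read cell type and not cell line, so the line in each library was not tested. The cells are called here by their library.

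Over all genes, the libraries were far apart. Of 3123 genes with counts, 416 had counts in both libraries, 1822 in Drop-seq alone and 885 in 10X alone. These tallies hold with values below 3 missing, which kept 29.7% of 10X human counts. RPS19, in Drop-seq alone here, had 50 counts in 10X with values of 2 kept. A gene was compared at 100 or more counts over both libraries, which 145 reached, and was called at a difference of at least 4-fold. Of these 145, 120 were called (82.8%), 80 higher in Drop-seq (55.2%) and 40 higher in 10X (27.6%). A gene with counts in 1 library could pass only by being high there, and 49 of the 145 were at 0 in 10X and 11 at 0 in Drop-seq. Among the 85 genes with counts in both, 31 were higher in Drop-seq, 29 higher in 10X and 25 were not called. The median log2 ratio, Drop-seq over 10X, was 2.59 over the 145 genes and 0.59 over the 85 with counts in both.

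The split depended on several choices, of which 3 follow and others are given in the closing section. Keeping values of 2, 288 genes were compared and 88 were higher in Drop-seq and 111 in 10X. With the most abundant transcript of each gene in place of the sum, 68 genes were compared and 21 were higher in Drop-seq and 37 in 10X. At a minimum of 200 counts, 29 were higher in Drop-seq and 28 in 10X. Of 327 Drop-seq transcripts with at least 30 counts, 75 (22.9%) had the same counts in every cell as another transcript of their gene, against 8 of 120 (6.67%) in 10X.

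Mouse cells of the same libraries, labelled as 1 line, gave a background for the platforms. Of 286 mouse transcripts with 100 or more counts, 206 were at least 4-fold apart (72%), 160 higher in Drop-seq (55.9%) and 46 higher in 10X (16.1%). Of 142 human transcripts, 116 were (81.7%), 64 higher in Drop-seq (45.1%) and 52 higher in 10X (36.6%). Large differences were thus common in the mouse cells too, and the parts of platform and human line in the human differences cannot be told apart.

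**Figure D3:**
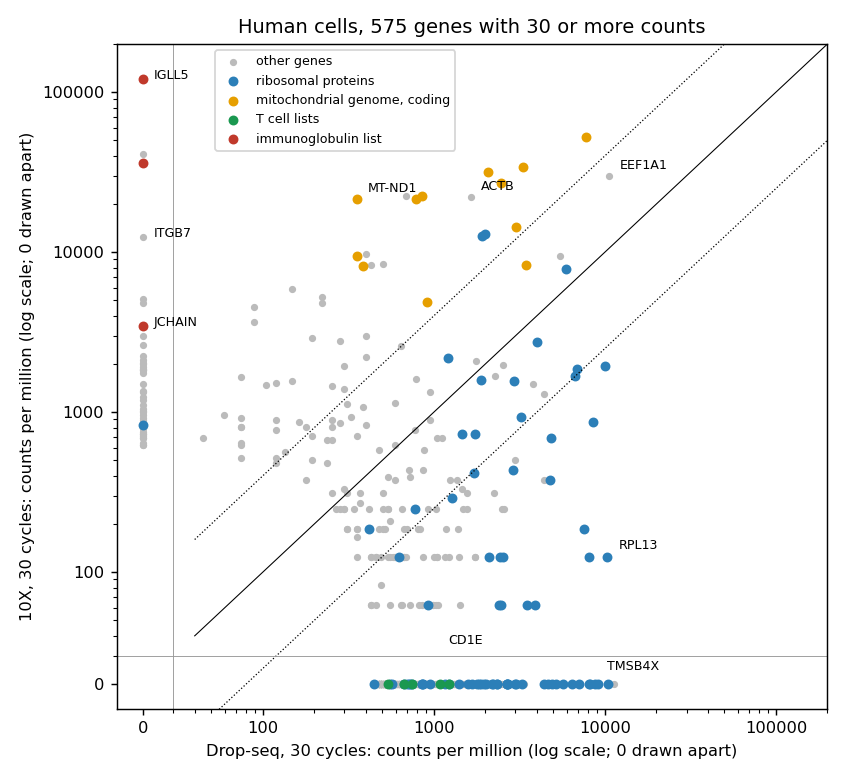
CPM in human cells of Drop-seq (x axis) and 10X (y axis), both on a log scale with 0 drawn apart, for 575 genes with at least 30 counts over both. The solid line marks equal levels and dotted lines 4-fold. Immunoglobulin genes lie at 0 in Drop-seq, T cell genes at 0 in 10X, 11 of 12 compared mitochondrial genes above the upper dotted line, and most ribosomal protein genes below the lower one or at 0 in 10X.

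Outside the marker lists, the genes highest in 10X were of several kinds. MDM2, the ubiquitin ligase that holds p53 low, had 0 counts in Drop-seq and 231 in 10X, at least 108-fold higher. CDV3 had 0 and 126 counts and ADAM32 0 and 102. ACTB, the cytoplasmic beta actin, had 110 and 1059 counts, or 1638 and 22043 CPM, a log2 ratio of -3.74 (-4.05 to -3.47). EEF1A1, the elongation factor that brings tRNAs to the ribosome, had 705 and 1441 counts, or 10500 and 29994 CPM, and its log2 ratio of -1.51 (-1.65 to -1.38) was under the call.

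The genes highest in Drop-seq were mostly of the ribosome. TMSB4X, an actin-binding peptide on chromosome X, had 757 counts in Drop-seq and 0 in 10X with values below 3 missing. RPS19, RPS15, RPL13A, RPL21 and RPL34 had 698, 609, 586, 549 and 541 counts in Drop-seq and 0 in 10X. Gene counts are sums over transcripts, which for RPS19 had 178, 178, 172 and 170 counts and may hold the same reads. RPL13 had 695 and 6 counts and a log2 ratio of 6.26 (5.24 to 7.82). These are genes that every cell uses, and 10X stored values of 2 for them. Keeping those, 10X had 12 counts on TMSB4X, 50 on RPS19, 76 on RPS15 and 64 on RPL13A, and the log2 ratios were 7.19, 5.06, 4.26 and 4.46.

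Ribosomal proteins took 17419 counts or 25.9% of human counts in Drop-seq and 2635 or 5.48% (5.28 to 5.69%) in 10X, a 4.73-fold higher share in Drop-seq. These are sums over transcripts, so a read counted on more than 1 transcript of a gene would raise them. Of transcripts with at least 30 counts, 22.9% in Drop-seq and 6.67% in 10X had the same counts as another of their gene. The part of this in the fold was not tested. Of 86 genes 81 had counts and 59 were compared, of which 47 were called higher in Drop-seq, 2 higher in 10X and 10 were not called. Over all 145 genes compared, 55.2% were higher in Drop-seq and 27.6% in 10X, and members at 0 in 10X could be compared only by being high in Drop-seq. The small subunit held 11.5% in Drop-seq and 0.991% in 10X, and the large subunit 14.5% and 4.49%. The 2 genes higher in 10X were RPL6, with 128 and 603 counts (log2 -2.71, -3.01 to -2.44), and RPL29, with 133 and 621 (log2 -2.70, -2.99 to -2.43). Both were also higher in 10X at 35 cycles, with 1087 and 808 counts there. Over the 81 members with counts, whether compared or not, the median log2 ratio with genes at 0 set to 3 counts was 4.29, beside 0.52 over all 3123 genes with counts.

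The protein-coding genes of the mitochondrial genome, which encode subunits of the respiratory chain, went the other way. All 13 had counts, 12 were compared, and 11 were called higher in 10X, beside 27.6% of all genes compared. The set took 1731 counts or 2.58% of human counts in Drop-seq and 12299 or 25.6% (25.2 to 26.0%) in 10X, a 9.93-fold higher share. At 35 cycles the shares were 2.48% and 25.4%. MT-ATP8 overlaps MT-ATP6 by 46 bases and MT-ND4L overlaps MT-ND4 by 7, so a read may be counted on both members of a pair. MT-ATP8 had 57 and 1085 counts and MT-ND4L 53 and 1032. The part of such reads in the share was not tested. MT-CO1, a catalytic subunit of complex IV, had 521 and 2509 counts and a log2 ratio of -2.75 (-2.89 to -2.61). MT-ND1, a subunit of complex I, had 24 and 1026 counts and a log2 ratio of -5.87 (-6.55 to -5.32). MT-CYB, of complex III, had 233 and 402 counts and a log2 ratio of -1.27 (-1.51 to -1.03), the member compared that was not called. The 10X share fell to 10.7% with values of 2 kept, and the log2 ratios of MT-CO1, MT-ND1 and MT-CYB were -1.27, -4.62 and -0.54. MT-CO1, MT-CO2 (-1.17) and MT-ND4 (-1.96) were then no longer 4-fold apart. A high mitochondrial share is often read as a sign of damaged cells, and its part in the other differences was not tested.

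**Figure D4:**
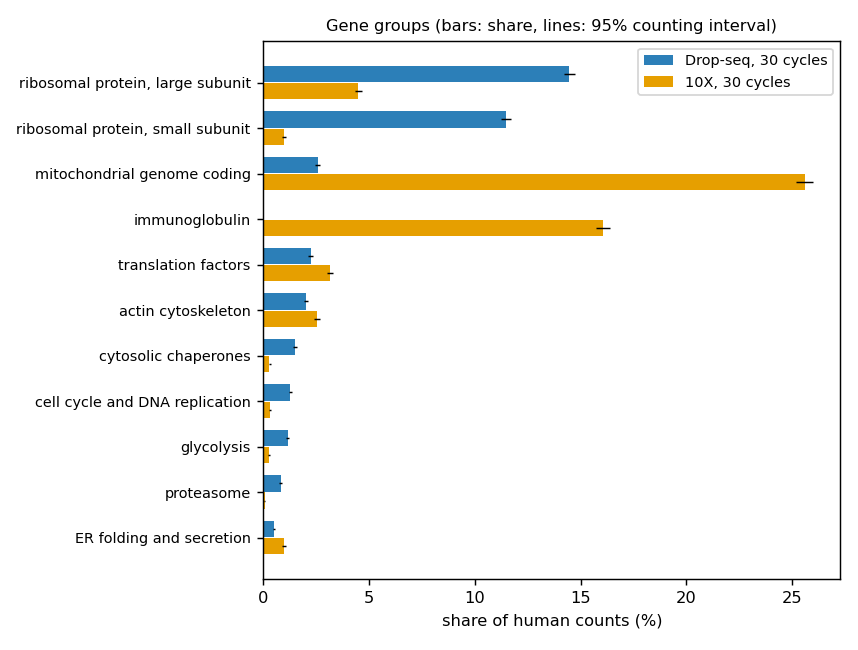
Share of human counts (%) on 11 gene groups in Drop-seq and 10X at 30 cycles, with 95% counting intervals. Ribosomal proteins are higher in Drop-seq, mitochondrial and immunoglobulin genes are higher in 10X with 25.6% and 16.1%, and immunoglobulin is at 0 in Drop-seq. The group drawn as cytosolic chaperones also holds mitochondrial members such as HSPD1.

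Housekeeping groups took smaller shares. Proteasome subunits, which degrade tagged proteins, held 552 counts (0.822%) in Drop-seq and 27 (0.0562%) in 10X, a log2 ratio of 3.87 (3.31 to 4.49), with 20 of 27 genes counted and none reaching the minimum for a call. PSMA4 had 79 and 0 counts and PSMC5 71 and 0. Chaperones of the cytosol and the mitochondria held 998 and 139 counts, a log2 ratio of 2.36 (2.10 to 2.63). Of 4 compared, the cytosolic HSP90AA1 (149 and 0) and the mitochondrial HSPD1 (172 and 12) were called higher in Drop-seq. In each of the chaperone, glycolysis and cell cycle lists 2 of 4 were called so, which is near the 55.2% over all genes compared and no result about these lists. Glycolytic enzymes held 769 and 126 counts, a log2 ratio of 2.13 (1.85 to 2.41). Of their 4 compared members, ENO1 (105 and 12) and LDHB (93 and 9) were called higher in Drop-seq, while GAPDH (256 and 72) and TPI1 (92 and 18) were not called. ENO1, at a log2 ratio of 2.59, lost its call with values of 2 kept (1.81), with 50% of the barcodes (0.86), with equal numbers of human cells (1.42) and with the 25-cycle Drop-seq library (0.23), and LDHB, at 2.82, lost it with equal numbers of human cells (1.64).

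Cell cycle and replication genes held 854 and 156 counts, a log2 ratio of 1.97 (1.72 to 2.23). Of 4 compared, 2 were called higher in Drop-seq, TUBA1B (103 and 0) among them, and RRM2 (70 and 33) and STMN1 (153 and 81) were not called. Keeping values of 2, the log2 ratios of proteasome, chaperones, glycolysis and cell cycle were 2.54, 1.02, 1.30 and 1.43, so the size of each depended on the values kept.

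Groups tied to secretion and to the cytoskeleton had log2 ratios under 1 in size with values below 3 missing. Genes of folding and secretion in the endoplasmic reticulum, which plasma cells use heavily, held 345 counts (0.514%) in Drop-seq and 475 (0.989%) in 10X, a log2 ratio of -0.94 (-1.15 to -0.74), with 33 of 51 genes counted and none reaching the minimum for a call. With values of 2 kept the list had 345 and 2673 counts and a log2 ratio of -1.68. Members were not of 1 direction. HERPUD1, of the degradation of misfolded proteins, had 0 and 96 counts, SSR2, a translocon-associated protein, 0 and 88, and HSP90B1, a chaperone, 8 and 73. SRP14, of the signal recognition particle, had 41 and 0 counts and RPN2, of the oligosaccharyl transferase, 34 and 0.

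Actin cytoskeleton genes held 1347 and 1213 counts and a log2 ratio of -0.33 (-0.44 to -0.22), with TMSB4X called in one direction and ACTB in the other, and ACTG1 had 64 counts in each. This ratio turned to 0.07 with values of 2 kept. Translation factors held 1504 and 1510 counts, a log2 ratio of -0.49 (-0.59 to -0.38). Of 5 compared, TPT1 (166 and 0), EIF1 (150 and 15), NACA (101 and 0) and PABPC1 (94 and 6) were called higher in Drop-seq, beside 55.2% of all genes compared, and EEF1A1, which held most of the counts, was not called. MHC class I genes had 59 and 9 counts, of which B2M, the shared light chain, had 45 and 9. The log2 ratio of this list was 2.23, and 0.52 with values of 2 kept, which gave 59 and 99 counts.

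The transcripts counted also differed in length. Without mitochondrial and immunoglobulin genes, the count-weighted median length of the annotated transcripts was 1441 bases in Drop-seq and 3224 bases in 10X. Transcripts of over 2000 bases took 37.6% of these counts in Drop-seq (37.2 to 38.0%) and 70.2% in 10X (69.6 to 70.8%), and those of over 5000 bases took 8.81% and 33.8%. Of 15 transcripts of over 5000 bases with 100 or more counts, all 15 were at least 4-fold higher in 10X, beside 36.6% of all human transcripts compared. Of 46 between 501 and 1000 bases, 35 were higher in Drop-seq and 6 in 10X, beside 45.1% and 36.6% of all. A transcript at 0 in either library could be compared only by being high in the other. Of all 142 compared, 38 were at 0 in 10X and 15 at 0 in Drop-seq. Those of over 5000 bases at 0 in Drop-seq included transcripts of ADAM32, CCND2, MAF, MDM2 and ZNF740. Isoforms also entered separately, as DDX6 transcripts of 6128 and 6152 bases with the same 10 and 235 counts. These tallies are therefore partly set by the minimum. With all genes included, the medians were close, 1426 and 1335 bases.

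Within ribosomal proteins, whose transcripts are short in both libraries, 59.5% of Drop-seq counts (58.8 to 60.3%) and 58.8% of 10X counts (56.9 to 60.7%) were on transcripts of 501 to 1000 bases. Transcripts up to 500 bases took 7.84% and 0.645%, those of 1001 to 2000 bases 19.1% and 23.8%, and those of 2001 to 3000 bases 11.5% and 15.8%, each pair apart by more than its intervals. Of the 39 such transcripts compared, 31 were at least 4-fold higher in Drop-seq and 4 higher in 10X, beside the same 45.1% and 36.6%. Those at 0 in 10X, RPS19 transcripts among them, could be compared only by being high in Drop-seq. Length and gene group moved together with the platform, and their parts were not tested. By annotated type, protein-coding transcripts took 80.1% of named counts in Drop-seq and 78.2% in 10X, and transcripts marked for nonsense-mediated decay 7.96% and 3.08%.

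**Figure D5:**
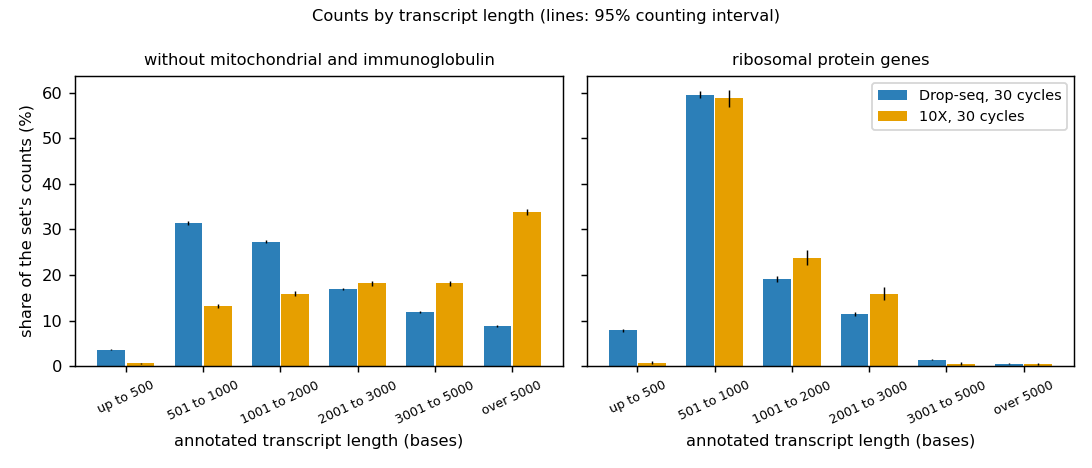
Share of counts (%) by annotated transcript length in Drop-seq and 10X, without mitochondrial and immunoglobulin genes (left) and for ribosomal protein genes (right), with 95% counting intervals. On the left, transcripts of over 5000 bases take 8.81% in Drop-seq and 33.8% in 10X, and on the right both libraries have their largest share at 501 to 1000 bases.

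Isoform shares within a gene do not depend on scaling. Of 14 genes with at least 100 counts in each library, 6 were mitochondrial genes with 1 transcript and 8 had several. The leading transcript was the same in 5 of these, PTMA, EEF1A1, RPL29, RPL10 and RPL6, and differed in 3, HNRNPU and ACTB among them. The summed share difference, 0 for equal shares and 100 for no overlap, was 36.4 percentage points for HNRNPU, a nuclear RNA-binding protein, 23.0 for PTMA, 19.2 for EEF1A1, 13.2 for RPL29 and 12.6 for ACTB, and smaller for RPL10 and RPL6.

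The changes of leader in HNRNPU and ACTB were near ties. In ACTB the leading 3 transcripts had 32, 31 and 31 counts in Drop-seq and 300, 300 and 298 in 10X. In HNRNPU the leaders had 27 and 27 counts in Drop-seq and 15 and 18 in 10X. The ACTB counts came from 9 Drop-seq and 75 10X cells, and those of HNRNPU from 4 and 10. Larger differences were in transcripts that were not the leader, where the cut at 3 can remove low values. Its part in them was not tested. In PTMA, which encodes the nuclear protein prothymosin alpha, ENST00000409683 took 78 of 369 counts in Drop-seq (21.1%) and 12 of 452 in 10X (2.65%). In EEF1A1, ENST00000610520 took 81 of 705 counts (11.5%) and was listed at 0 of 1441 in 10X. In ACTB, the 715-base ENST00000464611 took 3 of 110 counts (2.73%) and 161 of 1059 (15.2%).

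The 35-cycle libraries of the same platforms gave the direction again for the 120 genes called at 30 cycles. Of these, 107 were called the same way, 74 higher in Drop-seq and 33 higher in 10X, and none was called the other way or changed sign. Since these libraries share barcodes with those at 30 cycles, they are not a new sample of cells.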

How the data were processed

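Per the labels and the study's methods, single cells were captured by 10X Chromium or Drop-seq, read by nanopore sequencing and mapped to human hg38 and mouse transcripts, and the authors deposited UMI counts, whole numbers for each barcode and Ensembl transcript, without normalization. The study's methods count Drop-seq UMIs with UMI-tools as monomers or with its own script as homotrimers. Which of these made the deposited matrices, why the smallest stored values are 3 and 2, and how barcodes came to 10 bases are not given in the sources used here, so cells could share a stored barcode. No doublet caller was run, so human doublets stayed in.

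From the counts, human transcripts (26548 of 28503 identifiers, 93.1%, matched without version to GENCODE release 44 on hg38) were summed per gene over human cells. Unmatched transcripts, under 8% of human counts in each library, stayed in the CPM totals. Strand use in counting is not given. Log2 ratios used a pseudocount of 0.5 counts. Shares above 0 have exact Clopper-Pearson intervals, a share of 0 is given beside that of 3 counts or cells, and ratios exact conditional binomial intervals. PCR copies make these cover counting error only. A gene at 0 was bounded at 3 counts per library, which bounds kept counts and not the values left out. Work used Python 3.11.15, numpy 2.4.6, pandas 2.3.3, scipy 1.17.1 and matplotlib 3.10.9. The calling step was run on simulated gene totals, which had no cells, no cut at 3 and no shared reads. The effect of those on the calls was therefore not tested by it.

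Named genes were all members of the marker lists, the 12 highest and 12 lowest log2 ratios, the 5 genes with most counts per library, the 2 highest and 2 lowest of each list, and the 10 largest isoform share differences. Only some are printed, a few are not reported here, and list members below the minimum were named after their values were seen. Members, lists and markers were chosen with earlier results of these data known. Mouse transcripts were left unnamed.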

Additional observations from a re-analysis of the deposited data

Results flagged for a closer look

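Marker counts were also found in barcodes that were not taken as cells, which the comparison did not use. The 11857 further barcodes of the 10X library held 3405 immunoglobulin counts in 319 barcodes, 19.8% of the human counts there (19.2 to 20.4%), and 0 counts on the T cell receptor and CD3 list. The 20205 further barcodes of the Drop-seq library held 158 counts on the T cell receptor and CD3 list in 27 barcodes, 0.162% of the human counts there (0.138 to 0.190%), and 0 immunoglobulin counts.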

How the results depend on the processing

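No paired analysis was possible because each platform had 1 library. Each of the 43 called named genes kept its direction in all 471 recomputed values, and under each alternative at least 39 of those with a value stayed at least 4-fold apart. Many were named for extreme ratios or were at 0 in 1 library, so a reversal was unlikely in advance. The log2 ratio left its reported interval in 25 of the 43 with values of 2 kept and in 16 at 35 cycles. With values of 2 kept, 111 genes were higher in 10X, the summed log2 ratios were 6.73 for T cell receptor and CD3 genes and -10.45 for immunoglobulin, 79.3% of 10X human cells had an immunoglobulin value and 13 of 37 genes changed their leading isoform. With values below 5 missing, these were 51 genes higher in Drop-seq and 19 in 10X, 3.14, -11.89, 15.8% and 0 of 5, and 4.82% of Drop-seq human cells had a T cell receptor or CD3 value. With the number of barcodes cut to 50%, the log2 ratios were 4.38 and -11.30, the immunoglobulin share 64.8% and 1 isoform changed. With as many 10X as Drop-seq human cells these were 3.80, -11.52, 86.1% and 1. The immunoglobulin ratio was -11.75 at 95% purity and -11.86 at 80%. With the most abundant transcript, 21 genes were higher in Drop-seq and the log2 ratios were 4.49 and -10.89. Median-of-ratios scaling shifted all log2 ratios by -0.60, which gave 4.37 and -12.41, with 72 genes higher in Drop-seq and 41 in 10X. A minimum of 50 counts gave 210 genes higher in Drop-seq and 64 in 10X, and a minimum of 200 gave 29 higher in Drop-seq. At 35 cycles there were 123 genes higher in Drop-seq, 5.58, -12.81, 91.1% and 5 isoform changes, and with the 25-cycle Drop-seq library 122 genes and -12.07. Part of each move of a bounded ratio comes from the totals alone, since the bound is 3 counts. Depth limits 10X most, where 3 counts are 62.4 CPM and 29.7% of human counts were kept.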
